A study of Mus musculus with 12 samples.

Results

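Btg2, Tob2 and Tob1 belong to the BTG/TOB family of antiproliferative cofactors, and their transcripts were followed in mouse hepatocytes and in RNA precipitated from those cells with an antibody against CNOT6L. The members were looked up by gene symbol, and 3 of the 5 family genes sought (Btg1, Btg2, Btg3, Tob1 and Tob2) were found among 15780 probe sets that each carried 1 gene. Btg1 and Btg3 were not analysed here. Proteins of this family share an N-terminal BTG domain that binds CNOT7 and CNOT8, the CAF1-type deadenylases of the CCR4-NOT complex. CCR4-NOT shortens the poly(A) tails of mRNAs, and CNOT6L, like CNOT6, is a CCR4-type deadenylase of that complex. TOB proteins also bind the cytoplasmic poly(A)-binding protein, which brings the deadenylases to polyadenylated mRNAs. Family members slow cell division when they are overexpressed in mammalian cells, and Btg2 is known both as a p53 target and as a gene that is induced quickly by growth factors and stress. The comparisons therefore ask whether mRNAs of proteins that recruit CCR4-NOT were themselves recovered with a subunit of that complex.

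The series held 12 Affymetrix Mouse430_2 arrays in 4 groups of 3, all from primary hepatocytes of male C57BL/6J mice aged 8 weeks. The groups were the CNOT6L precipitate of wild-type cells (WT IP), the precipitate of Cnot6l knockout cells (KO IP), the input RNA of knockout cells (KO input) and the input RNA of wild-type cells (WT input). An IP and its input came from portions of 1 hepatocyte sample, and knockout cells were the negative control for the antibody. Nothing more is stated of the Cnot6l allele. The titles call the 3 replicates biological, and whether each was a separate animal is not otherwise stated, so the p-values measure the spread between these samples.

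The 250 bases before the transcription start of each member are shown because they are the regulatory sequence nearest to the gene that could be read, and Btg2 is the member known for rapid induction. Letters and GRCm38.p6 coordinates are RefSeq's, and all 3 members matched its promoter table. Capitals mark matches on either strand to the cAMP response element TGACGTCA, the CCAAT box and the TATA box TATAAA.
Btg2 (chr1:134079156-134079405, minus strand): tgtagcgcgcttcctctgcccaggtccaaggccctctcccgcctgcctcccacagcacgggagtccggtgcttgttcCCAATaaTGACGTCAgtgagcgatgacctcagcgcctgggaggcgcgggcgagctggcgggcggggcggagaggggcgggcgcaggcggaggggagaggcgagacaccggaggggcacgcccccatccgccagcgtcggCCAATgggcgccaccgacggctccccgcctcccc
Tob2 (chr15:81858327-81858576, minus strand): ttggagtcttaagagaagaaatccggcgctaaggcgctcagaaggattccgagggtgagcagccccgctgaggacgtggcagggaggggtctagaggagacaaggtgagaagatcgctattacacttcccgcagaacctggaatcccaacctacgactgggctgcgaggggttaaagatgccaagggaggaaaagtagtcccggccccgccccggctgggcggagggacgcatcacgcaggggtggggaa
Tob1 (chr11:94211204-94211453, plus strand): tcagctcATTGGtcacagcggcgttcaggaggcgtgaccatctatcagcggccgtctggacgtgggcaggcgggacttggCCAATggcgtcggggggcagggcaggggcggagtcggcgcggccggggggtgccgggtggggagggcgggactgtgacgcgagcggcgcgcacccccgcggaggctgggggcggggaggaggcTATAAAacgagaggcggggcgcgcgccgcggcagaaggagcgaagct
The Btg2 stretch held a cAMP response element 166 to 159 bases before the start, with a CCAAT box 173 to 169 bases before it and another at 34 to 30 bases, and no match overlapped another. The Tob1 stretch held 2 CCAAT boxes, 1 of them on the opposite strand, and TATAAA 47 to 42 bases before the start. None of the 3 motifs was matched in the Tob2 stretch. Of 32851 promoter stretches of the same length, 1.55% held TGACGTCA, 33.8% held CCAAT and 12.4% held TATAAA. A match is a string of letters, and the arrays did not measure binding to it.

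All signals are array values on a log2 scale, so a difference of 1 is a doubling, and the number of arrays limits their precision. Array medians lay between 6.31 and 6.45, so the values compare transcripts within an array and carry no information on how much RNA was precipitated. Cnot6l itself read 9.11, 10.65 and 8.85 in WT IP, 9.29, 10.63 and 9.46 in KO IP, 9.12, 9.23 and 9.34 in KO input, and 8.44, 9.51 and 9.11 in WT input. Its signal was not lower in the arrays labelled knockout (KO input minus WT input 0.21 ± 0.50 SE, limma adjusted p = 1.0), and the labels do not place its probes inside or outside the deletion. The genotypes are therefore those of the labels. The 15 bacterial poly-A control probe sets exceeded their input signal in the IP by 3.71 to 4.67 in wild type and by 3.91 to 4.86 in knockout. Their mean signal in replicate 1 was 4.75 in WT input and 4.77 in KO input, against 7.35 to 7.60 in the other inputs. In the IPs of replicate 1 it was 9.42 (WT) and 9.63 (KO), against 11.17 to 11.73 in the other IPs. The part of this replicate difference in the member signals was not tested. The gap between the 3′ and 5′ Gapdh probe sets was wider in the IP by 0.85 to 1.95 in wild type and by 0.85 to 1.66 in knockout. The gap itself was 2.34 and 1.93 in the WT and KO IPs of replicate 3, against 0.84 to 1.14 in the other IPs. These control shifts had overlapping ranges in the genotypes. Paired by replicate number, the poly-A shift was larger for KO than for WT each time (4.86 against 4.67, 3.91 against 3.71, 4.14 against 3.91). The Gapdh shift, paired likewise, went both ways (KO 1.07 against WT 0.85, 0.85 against 0.88, 1.66 against 1.95). The part of these shifts in any difference between IP and input, or between the genotypes, was not tested.

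The defining hepatocyte markers were the brightest of the marker lists. Alb, Apoa1, Ttr, Serpina1a and Cyp2e1, which were 5 of 6 listed, averaged 12.42 to 13.59 in WT IP, 12.26 to 13.41 in KO IP, 12.63 to 13.62 in KO input and 12.92 to 13.85 in WT input. Of the Kupffer cell markers, 2 of 6 passed the filter on dim probe sets, with list means of 6.09 to 6.16 in WT IP, 5.95 to 6.21 in KO IP, 5.69 to 5.99 in KO input and 5.78 to 5.99 in WT input, and Clec4f, Adgre1, Vsig4 and Marco were below it. Of 5 lymphocyte markers with a probe set 1 passed. The list mean was 3.99 to 4.47 in WT IP, 4.23 to 4.34 in KO IP, 3.99 to 4.26 in KO input and 4.10 in all 3 WT input arrays. Endothelial (2 of 6 past the filter), stellate (3 of 6) and cholangiocyte (2 of 4) markers had list means of 4.96 to 6.29 over the 12 arrays, and the erythroid gene Alas2 ranged from 4.62 to 7.45. In such bulk RNA, fewer cells of a type and less RNA per cell cannot be told apart.

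Btg2 was 4.79-fold higher in WT IP than in KO IP, and this was the only difference of a member that passed the test without a replicate block. Of all genes tested, 0.253% were called higher there, and the Btg2 call stayed in 1 of the 12 fits that left out 1 array. Against the inputs, the Btg2 ratio was 2.39 in WT IP over WT input and 0.474 in KO IP over KO input. Tob2 had a ratio of 2.04 in WT IP over WT input and of 1.11 in KO IP over KO input. The ratios of Tob1 lay between 0.931 and 1.41 in the 5 comparisons, and those of all 3 members between the inputs between 1.03 and 1.16. With the block, Btg2 and Tob2 in WT IP against WT input and Btg2 in KO IP against KO input passed as well. The block called 2.41% of all genes higher in the former comparison and 5.28% lower in the latter.

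Btg2 encodes the founding antiproliferative member TIS21/PC3. Its signal was 11.19, 12.42 and 11.51 in WT IP, 8.93, 9.93 and 9.47 in KO IP, 10.31, 10.65 and 10.60 in KO input, and 9.98, 10.81 and 10.56 in WT input, for replicates 1, 2 and 3. The WT IP arrays were all above every other array, and the KO IP arrays were all below every other array. From high to low the order was WT IP (11.71 ± 0.64, SD, n = 3), KO input (10.52 ± 0.18), WT input (10.45 ± 0.43) and KO IP (9.45 ± 0.50). The inputs overlapped, and the lowest WT input array (9.98) stood just above the highest KO IP array (9.93).

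**Figure D1:**
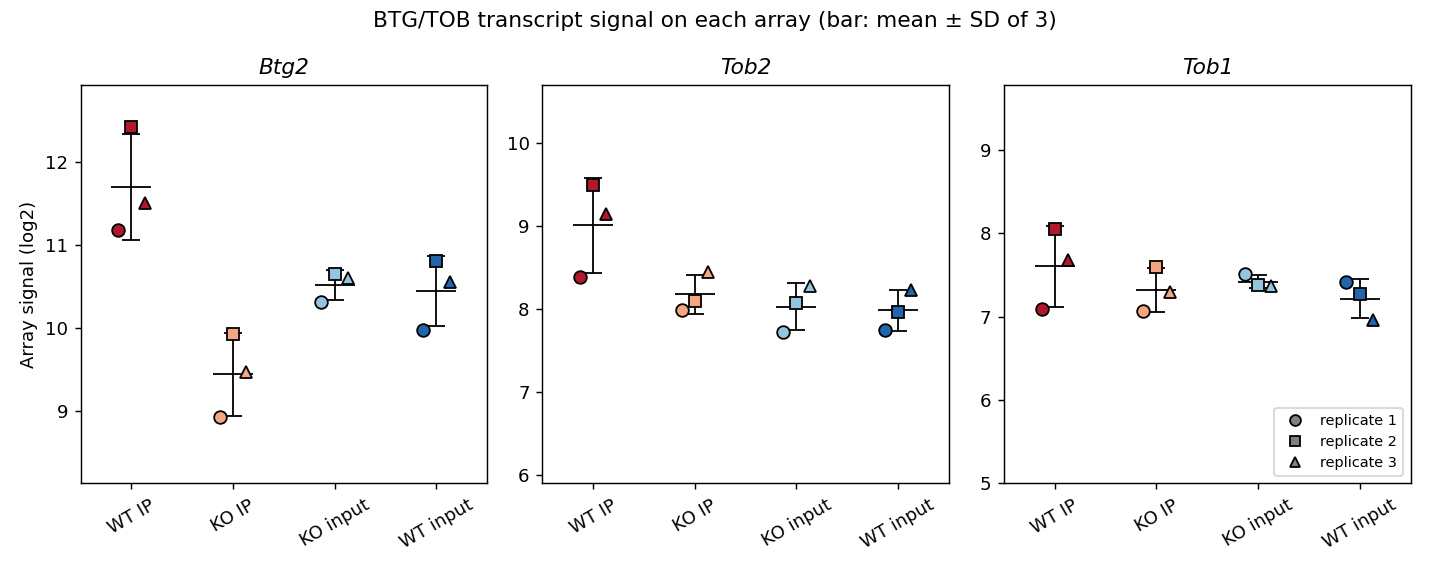
Array signal (log2, vertical axis) of Btg2, Tob2 and Tob1 in the 4 groups (horizontal axis), with symbols for replicates 1 to 3 and bars for the mean ± SD of 3 arrays; the 3 panels have the same height in log2 units. Btg2 lies between 11.19 and 12.42 in WT IP and between 8.93 and 9.93 in KO IP, with both inputs between them.

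Between the precipitates, Btg2 was 2.26 ± 0.38 (SE) higher in WT IP than in KO IP, with a 95% interval of 1.43 to 3.10 and a limma adjusted p of 0.0368 over the 9496 genes tested. Within replicate numbers the gap was 2.25, 2.49 and 2.04. This made 1 of the 3 members called higher, where 0.253% of all genes tested were. With the replicate number as a block the adjusted p was 0.000836, where 2.33% of genes were called higher. That block pairs the genotypes by number, a pairing read from these array values and not from the labels. The call without a block was lost in 11 of the 12 fits that left out 1 array. It stayed only without WT IP replicate 1 (adjusted p = 0.0487), with differences over the 12 fits of 1.90 to 2.52 and an adjusted p of up to 0.181. It was also lost in a fit on the 6 IP arrays alone (adjusted p = 0.461).

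The gap between the precipitates had a part on either side of the inputs. In wild type, the IP minus input difference of Btg2 was 1.21, 1.61 and 0.95 in the 3 preparations, a mean of 1.26 (2.39-fold). Its SE was 0.38 in the fit without a block, which ignores the pairing, and 0.22 with the preparation as a block. In knockout the difference was -1.38, -0.72 and -1.13, a mean of -1.08 (0.474-fold), with the same SEs of 0.38 and 0.22. The wild-type value did not pass without a block (limma adjusted p = 0.261) and passed with the preparation as a block (adjusted p = 0.0221). The knockout value likewise had an adjusted p of 0.346 without the block and 0.0357 with it. Quantile normalization moved the median of all genes in KO IP against KO input by 0.16 and gave a Btg2 value of -0.83. In the values as deposited, Btg2 relative to the median of all genes was -0.87 in KO IP against KO input. It was 1.36 in WT IP against WT input.

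Specific enrichment is the IP minus input difference in wild type minus that in knockout, and for Btg2 it was 2.33 ± 0.54 (SE), or 5.03-fold, with a 95% interval of 1.15 to 3.51. The same-number values were 2.58, 2.33 and 2.08, and the preparations of the genotypes did not overlap. By size it ranked 20 and by p-value 14 among the 9496 genes. It did not pass (limma adjusted p = 0.712), nor did it with the preparation as a block (adjusted p = 0.0650). It passed with the number as a block (adjusted p = 0.0245, where 0.284% of genes were called higher) and with blocks of 1 number in 1 fraction (adjusted p = 0.0168, where 0.358% were). These last blocks pair the genotypes by number, a pairing read from these array values and not from the labels. The exact permutation p over the 6 preparations was 0.1, the smallest that 3 against 3 can give.

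In the inputs Btg2 differed by 0.07 ± 0.38 (SE) between knockout and wild type, with a 95% interval of -0.76 to 0.91 and a limma adjusted p of 1.0. Within replicate numbers it was 0.33, -0.16 and 0.04, of both signs. The inputs overlapped.

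**Figure D2:**
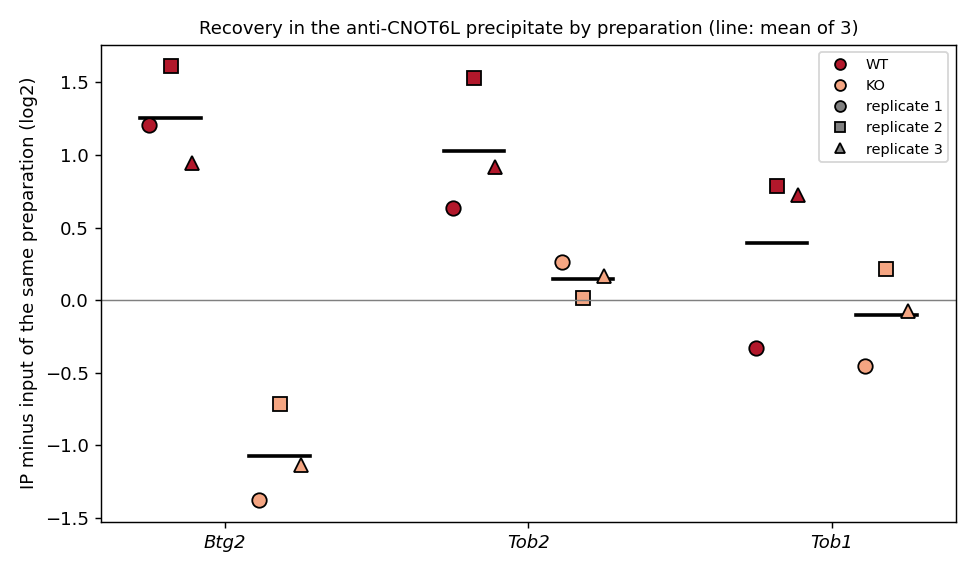
IP minus input of the same preparation (log2, vertical axis) for Btg2, Tob2 and Tob1, with WT left of KO, symbols for replicates 1 to 3 and a line at the mean of 3. Btg2 lies above 0 in all 3 WT preparations (0.95 to 1.61) and below 0 in all 3 KO preparations (-1.38 to -0.72), whereas Tob2 is above 0 in all 6.

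Tob2 encodes a TOB protein with a longer C-terminal region than that of BTG2. Its signal was 8.38, 9.49 and 9.15 in WT IP, 7.99, 8.09 and 8.44 in KO IP, 7.72, 8.07 and 8.28 in KO input, and 7.74, 7.96 and 8.23 in WT input. WT IP lay above both inputs without overlap and overlapped KO IP by 1 array, since WT IP replicate 1 (8.38) was below KO IP replicate 3 (8.44). The mean was 9.0 ± 0.57 in WT IP, and the other 3 groups overlapped one another, with means of 8.17 ± 0.24 in KO IP, 8.02 ± 0.28 in KO input and 7.98 ± 0.24 in WT input (SD, n = 3 each).

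In wild type, IP minus input of Tob2 was 0.63, 1.53 and 0.92 in the 3 preparations, a mean of 1.03. The fit without a block gave an SE of 0.33 and a 95% interval of 0.31 to 1.74, and the preparation block an SE of 0.22. The limma adjusted p was 0.273 without a block and 0.0361 with the preparation as a block. In knockout the preparations gave 0.26, 0.02 and 0.16, a mean of 0.15 (without a block, SE 0.33 and limma adjusted p = 0.908). Specific enrichment of Tob2 was 0.88 ± 0.46 (SE; 1.84-fold, 95% interval -0.13 to 1.89), with same-number values of 0.37, 1.51 and 0.76, and did not pass (adjusted p = 1.0, and 0.621 with the block). The preparations of the genotypes did not overlap. WT IP exceeded KO IP by 0.83 ± 0.33 (adjusted p = 0.753, and 0.0810 with the block), and KO input minus WT input was 0.05 ± 0.33 (adjusted p = 1.0).

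Tob1 encodes the TOB protein known to inhibit BMP signalling through SMADs. Its signal was 7.09, 8.05 and 7.68 in WT IP, 7.06, 7.59 and 7.30 in KO IP, 7.52, 7.38 and 7.37 in KO input, and 7.42, 7.27 and 6.95 in WT input. Every pair of groups neighbouring in level overlapped. The order of the means was WT IP (7.61 ± 0.49), KO input (7.42 ± 0.08), KO IP (7.32 ± 0.26) and WT input (7.21 ± 0.24; SD, n = 3 each). IP minus input was -0.33, 0.78 and 0.72 in wild-type preparations and -0.45, 0.21 and -0.07 in knockout ones, so replicate 1 was lower in the IP in both genotypes. Specific enrichment was 0.50 ± 0.42 (SE; 95% interval -0.43 to 1.42, limma adjusted p = 1.0), with same-number values of 0.12, 0.57 and 0.80. WT IP minus KO IP was 0.29 ± 0.30 (adjusted p = 1.0) and KO input minus WT input 0.21 ± 0.30 (adjusted p = 1.0). No Tob1 value passed with the replicate block, where the lowest adjusted p was 0.366, for WT IP against WT input.

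**Figure D3:**
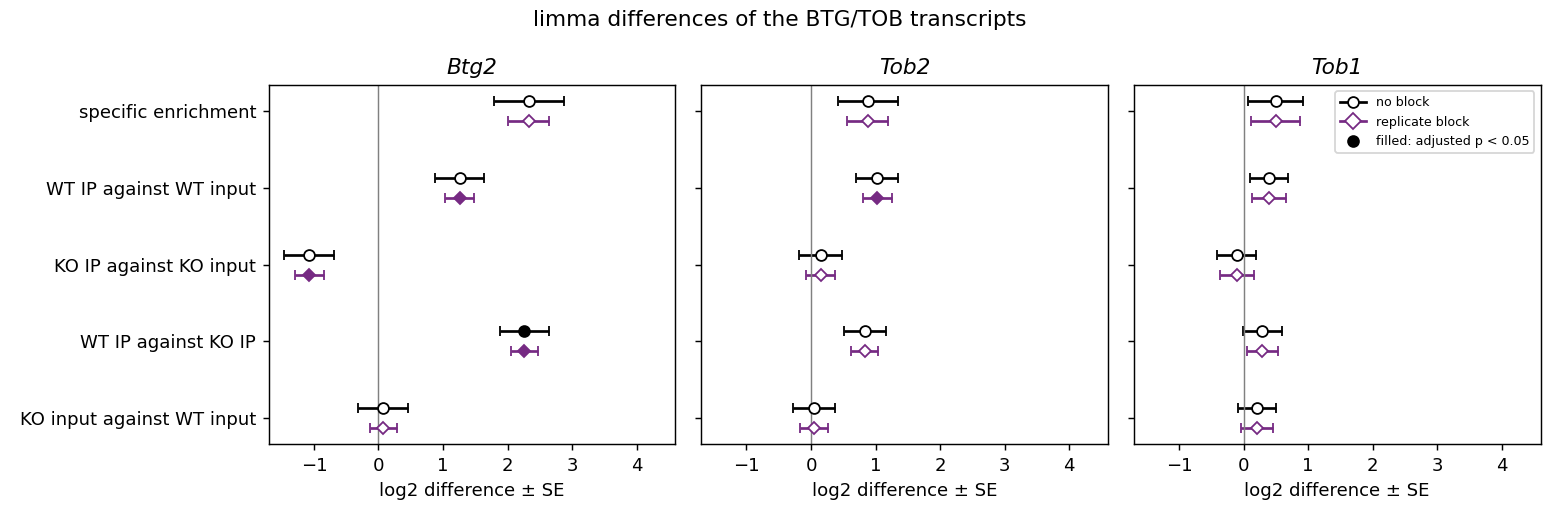
log2 differences ± SE (horizontal axis) of Btg2, Tob2 and Tob1 in the 5 comparisons (vertical axis), from limma without a block (circles) and with the replicate block (diamonds); filled symbols passed at an adjusted p under 0.05. Without a block the filled circle is Btg2 in WT IP against KO IP (2.26), and with the block 4 diamonds are filled, 3 of Btg2 and 1 of Tob2.

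Read against all genes, the groups did not overlap for 2 of the 3 members in WT IP against WT input (Btg2 and Tob2, higher), where 7.72% of genes tested were higher without overlap. In specific enrichment the same 2 members did not overlap, beside 7.94% of genes. Btg2 was lower without overlap in KO IP against KO input, beside 10.1% of genes, and higher without overlap in WT IP against KO IP, beside 5.44%. None of the 3 did so between the inputs, beside 1.62% in either direction. The limma calls behind these counts, without a block, were 0 of 3 for specific enrichment (0.0105% of genes called higher), for WT IP against WT input (0.105% higher), for KO IP against KO input (0% lower) and for KO input against WT input (0%). At an unadjusted p under 0.05 there was 1 member higher in specific enrichment (1.83% of genes), 2 higher in WT IP against WT input (4.58%), 1 lower in KO IP against KO input (8%), 2 higher in WT IP against KO IP (4.78%) and 0 between the inputs (0.0527%). With the replicate block 2 members were called higher in WT IP against WT input (2.41% of genes) and 1 lower in KO IP against KO input (5.28%), 1 higher in WT IP against KO IP (2.33%), and 0 in specific enrichment (0.0211%) and between the inputs (0%). These comparisons share arrays, so their counts are not independent of one another.

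Btg2 and its relatives were compared on their IP minus input differences, since signals of different probe sets are not on a common scale. The difference of Btg2 minus that of Tob1 was 1.54, 0.83 and 0.22 in wild-type preparations and -0.92, -0.93 and -1.06 in knockout ones, so that the genotypes were 1.83 apart. For Btg2 minus Tob2 the values were 0.58, 0.08 and 0.03 in wild-type preparations and -1.64, -0.73 and -1.30 in knockout ones, 1.45 apart. The genotypes did not overlap in either pair, and the two-sided exact permutation p was 0.1 for both (0.1 after adjustment over the 2 pairs), the smallest that 3 against 3 preparations can give. In the wild-type preparations Btg2 and Tob2 were thus within 0.58 of each other. The gap in that pair lay mainly in knockout, where the mean was -1.22 ± 0.46, against 0.23 ± 0.30 in wild type (SD, n = 3 each).

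Btg4, a family member known from oocytes, was on the array and dim. Its signal was 4.38 to 4.98 in WT IP, 4.38 to 5.48 in KO IP, 4.09 to 4.62 in KO input and 4.28 to 4.42 in WT input. All of these values were below the filter level of 5.57, and Btg4 was not tested.

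The list of deadenylase genes held the CCR4-NOT subunits, enzymes and others, together with Pan2, Pan3, Parn and Noct, and 15 of its 16 genes were tested. Their median specific enrichment was 0.04, beside 0.05 for all genes. Of the 15, 9 were positive, beside 55.8% of all genes, and 0 were called by limma with or without the block. Cnot8, 1 of the 2 deadenylases that the BTG domain binds, rose in WT IP by 2.00 over WT input (limma adjusted p = 0.0352) and by 1.90 over KO IP (adjusted p = 0.0332). Its specific enrichment was 1.84 ± 0.43 (SE), with same-number values of 1.73, 1.97 and 1.82 (adjusted p = 0.712). Cnot7, the other one, had -1.36 in WT IP against WT input and -1.64 in KO IP against KO input, and passed as lower only with the replicate block (adjusted p = 0.0389 and 0.0292), beside 4.61% and 5.28% of all genes called lower. The scaffold-associated subunit gene Cnot3 had 1.07 in WT IP against WT input and also passed only with the block (adjusted p = 0.0386, beside 2.41% of genes called higher). Noct, the nocturnin gene long classed with the deadenylases (0.78), Tnks1bp1 (0.76) and Cnot10 (-0.50) had the next largest specific enrichments and did not pass. Cnot7 and Cnot3 are named after their values were seen.

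Of the genes for partners and regulators of BTG/TOB proteins, 8 of 15 had a probe set in the table used here and 6 were tested. Their median specific enrichment was 0.02, with 3 of 6 positive, beside 55.8% of all genes. None was called in any of the 5 comparisons, with or without the block. The largest values were those of Cpeb3 (0.54), an RNA-binding protein known to recruit CAF1 through TOB, Cpeb1 (-0.50), Prmt1 (0.38), the arginine methyltransferase that binds BTG2, and Smad5 (-0.29). Prmt1 averaged 7.84 in WT IP, against 10.38 in WT input, and 7.44 in KO IP, against 10.36 in KO input. Its IP minus input differences lay between -3.80 and -0.86 in wild-type preparations and between -5.15 and -0.46 in knockout ones, and neither passed (limma adjusted p = 0.490 and 0.411).

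The p53 target genes, to which Btg2 belongs as a known target, had a median specific enrichment of 0.45 over 16 tested genes, beside 0.05 for all genes, and 13 of 16 were positive, beside 55.8% of all genes. None was called by limma in specific enrichment, with or without the block. In KO IP against KO input their median was -0.45, beside -0.21 for all genes, with 2 of 16 positive, beside 34.1% of all genes. In WT IP against WT input it was -0.07, beside -0.11, with 8 of 16 positive, beside 41.6% of all genes. Bbc3, which encodes the cell death protein PUMA, had a specific enrichment of 1.51 ± 0.71 (SE), with 0.93 in wild type and -0.58 in knockout. Sesn2 had 1.17, Pmaip1, which encodes NOXA, 1.07, and the growth arrest gene Gadd45a 0.91, all at an adjusted p of 1.0. With the block, Pmaip1 passed as lower in the IP of both genotypes (-0.92 in wild type, adjusted p = 0.0386, and -1.99 in knockout, adjusted p = 0.0111), Gadd45a passed as lower in KO IP against KO input (-1.47, adjusted p = 0.0399), and Bbc3 as higher in WT IP than in KO IP (1.60, adjusted p = 0.0219). Over all genes, the block called 4.61% lower in WT IP against WT input, 5.28% lower in KO IP against KO input and 2.33% higher in WT IP against KO IP.

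The G1 cell cycle list held genes that drive this step, such as cyclins and their kinases, and genes that restrain it, such as the pocket proteins, and 13 of its 16 genes were tested. Their median specific enrichment was 0.23, beside 0.05 for all genes. Of the 13, 9 were positive, beside 55.8% of all genes, and 0 were called with or without the block. Ccng2, an unconventional cyclin linked to growth arrest, had the largest value, 3.0 ± 0.61 (SE), with 2.28 in wild type and -0.72 in knockout (limma adjusted p = 0.365). It rose in WT IP over KO IP by 3.20 (adjusted p = 0.0152), and it exceeded WT input by 2.28 (adjusted p = 0.0823, and 0.00867 with the block). Rbl1, the pocket protein gene for p107, had 1.66, and passed only with the block in WT IP against KO IP (1.41, adjusted p = 0.0312). E2f4 (0.80) and Rb1 (0.50) did not pass in any comparison.

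**Figure D4:**
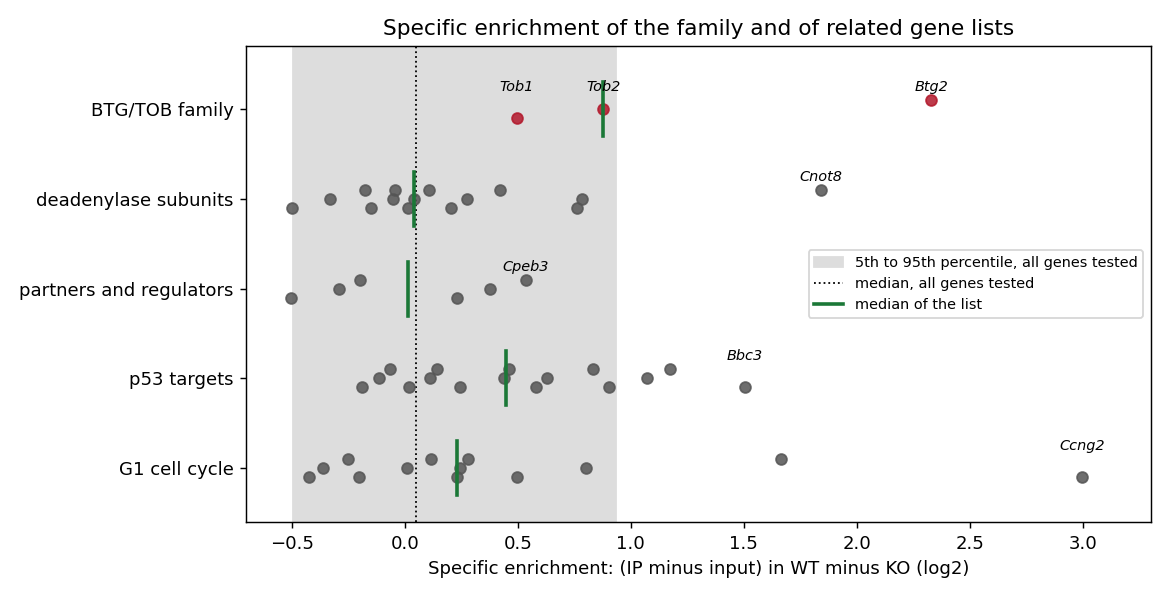
Specific enrichment (log2, horizontal axis) of the tested genes of the family and of 4 related lists (rows; each dot is a gene, and the green line is the list's median), over the 5th to 95th percentile of all genes tested (grey) and their median (dotted). Btg2 (2.33) lies to the right of the grey band with Cnot8 (1.84), Bbc3 (1.51), Sesn2 (1.17), Pmaip1 (1.07), Rbl1 (1.66) and Ccng2 (3.0), while Tob2 (0.88) and Tob1 (0.50) lie within it.

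Genes with a profile most like that of Btg2 were found by the root mean square difference between log2 profiles over the 12 arrays, each centred on its own mean. The smallest difference was that of Mterf3, a mitochondrial transcription termination factor gene, at 0.27, where the median over all genes was 1.01 and Btg2 itself varied by 0.89 about its mean. A gene that has only a clone name came next (0.33), and Rnaseh1, the ribonuclease H1 gene (0.33), Pdcd7, a gene of the minor spliceosome (0.35), and Med4, a Mediator subunit gene (0.38), followed. The specific enrichment of the clone was 1.92 (limma adjusted p = 0.545). Those of the others were 1.79 for Mterf3, 1.58 for Rnaseh1, 2.24 for Pdcd7 and 1.55 for Med4, each at a limma adjusted p of 1.0. Tmem179b (0.21) and Fam160b1 (0.23) were most like Tob2, beside a median of 0.74. Orc2, an origin recognition complex gene, and Mitd1 (both 0.17) were most like Tob1, beside a median of 0.58. The likeness was chosen on these arrays and is a description of them.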

How the data were processed

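The deposited table holds log2 expression values, 1 per probe set and array, as their range shows; the background correction, normalization and summarisation by which the authors made them were not given in the sources used here. Of 16539 probe sets, 64 were controls, 15780 carried 1 gene, 0 several and 695 none; 15752 were matched by Entrez identifier to RefSeq (GRCm38.p6). The filter on dim probe sets kept the 9496 genes with a 12-array mean at or above the 40th percentile (5.57). Differences were fitted with limma 3.58.1 in R 4.3.3 on the 4 group means with all 12 arrays together, which leaves 8 residual degrees of freedom, two-sided, with Benjamini-Hochberg adjustment over the 9496 genes; a call is an adjusted p under 0.05. The fit was tested on simulated data that held no replicate effect, so the simulation does not show how such an effect or a block changes the calls. Figures used Python 3.11.15 and matplotlib 3.10.9.

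Replicate numbers paired the samples: after removal of group means, same-number arrays of different groups correlated across genes at 0.45 to 0.94 (18 pairs) and different-number arrays at -0.71 to 0.07. Deviations within a group cancel after this removal, so positive same-number values force the different-number ones to be negative on balance. The latter are therefore not separate evidence of pairing. The pairing of IP with input comes from the series text, and that of genotypes from the values. The replicate block is the preparation for IP against input and specific enrichment, and the number between genotypes. Alternatives were the filter, normalization, arrays in the fit, blocks, prior and each array left out.

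All 3 members with a probe set in the deposited values are named, with Cnot6l and Btg4. So are up to 4 tested genes per list with the largest absolute specific enrichment. Given too are the 5 genes most like Btg2 and 2 most like each other member. A gene with only a clone name is counted and not named. Members and lists were chosen with earlier results of these data known. The planned comparison of Btg2 with 4 relatives used the 2 that had a probe set in the deposited values.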

Additional observations from a re-analysis of the deposited data

Results flagged for a closer look

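Btg2 had a positive IP minus input difference in all 3 wild-type preparations and a negative one in all 3 knockout preparations, with means of 1.26 and -1.08 and a gap of 2.33 (limma adjusted p = 0.712 for that gap). Of the 9496 genes tested, 158 (1.66%) showed this pattern and 17 (0.179%) the opposite one. Of the other genes named, Ccng2 showed it with a gap of 3.0 (2.28 in wild type and -0.72 in knockout, adjusted p = 0.365). Among the p53 targets, Bbc3 did with 1.51 and Sesn2 with 1.17 (adjusted p = 1.0 for both), and Sesn2 had a mean of 0.15 in wild type and -1.02 in knockout. The Sesn2 values were 0.42, 0.0096 and 0.019 in wild-type preparations and -2.26, -0.45 and -0.36 in knockout ones. Of the genes most like Btg2, Rnaseh1 (1.58), Pdcd7 (2.24) and Med4 (1.55) showed it too (adjusted p = 1.0 for all 3), as follows in part from how they were chosen. The highest knockout value of Rnaseh1 was -0.0013, barely negative.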

How the results depend on the processing

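Over 20 alternatives per comparison, Btg2 kept its sign in every comparison except the inputs, with values of 1.97 to 2.59 for specific enrichment, 0.90 to 1.51 for WT IP against WT input, -1.32 to -0.82 for KO IP against KO input and 1.90 to 2.52 for WT IP against KO IP. Members called numbered 0 in each comparison as reported except WT IP against KO IP, with 1. With the replicate block by preparation the counts became 2 in WT IP against WT input and 1 in KO IP against KO input, and with the replicate block by number they were again 2 and 1, with 1 in specific enrichment. The block by number within fraction also gave 1 there. WT IP against KO IP gave 0 on its own 6 arrays, and 0 to 1 when 1 array was left out, where the other comparisons stayed at 0. The replicate block changed no other call of a member. Values that changed sign were small and not called. For KO IP against KO input, Tob1 had 0.13 after quantile normalization, also in the exact test, and -0.24 to 0.023 with 1 array left out, with the positive value without KO IP replicate 1; Tob2 had -0.0039 to 0.27, the lowest without KO input replicate 1. Between the inputs, Tob2 had -0.081 to 0.20 (negative without KO input replicate 3 and, at -0.071, without WT input replicate 1) and Btg2 -0.16 to 0.25 (negative without WT input replicate 1). Btg2 minus Tob1 ran from 1.497 to 2.15 and Btg2 minus Tob2 from 1.24 to 1.70 when 1 preparation was left out. Genes called higher over the whole table numbered 1 in specific enrichment (0 to 4 with 1 array left out, 1 to 34 otherwise), 10 in WT IP against WT input (2 to 11, and 1 to 362) and 24 in WT IP against KO IP (4 to 16, and 0 to 340). Genes called lower numbered 0 in each of these and in KO IP against KO input, with up to 746 and 897 under blocks in the comparisons of IP with input and up to 40 in WT IP against KO IP. KO IP against KO input had 0 genes called higher, and up to 176 otherwise. By mean absolute difference, 2 of the 5 genes most like Btg2, 1 of 2 for Tob2 and 0 of 2 for Tob1 were named again.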
